A study of Mus musculus with 12 samples.

Results

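Annexins are cytosolic proteins that bind membrane phospholipids when calcium rises, and they take part in membrane repair, vesicle traffic and the clearance of dying cells. Annexin A1, once released, is a ligand of the formyl peptide receptors, G-protein-coupled receptors by which myeloid cells sense bacterial formylated peptides and host signals of damage and resolution. Glucocorticoids are known to raise annexin A1, and the annexin A1 and formyl peptide receptor axis is a textbook brake on neutrophil and monocyte recruitment. Transcripts of 10 genes of these families were described, 8 annexins (Anxa1, Anxa2, Anxa3, Anxa4, Anxa5, Anxa6, Anxa7 and Anxa11) and 2 receptors (Fpr1 and Fpr2), out of 56953 listed genes. The genes were chosen by name, and each matched 1 row of the deposited tables.

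Bone marrow of female C57BL/6J mice at 8 weeks of age was sorted into 4 populations with 3 libraries each, and polyadenylated RNA was sequenced. Per the study's methods, macrophages came from mice in which Cre under the Rank locus (Rank cre/+) switched on an eYFP reporter (R26.eYFP fl/+). The eYFP+ cells are the lineage-traced macrophages of embryonic progenitors. The eYFP- cells are macrophages that the study names adult, of hematopoietic stem cell origin, although a cell in which recombination failed would also be eYFP-. The other 2 populations were Ly6Chi and Ly6Clo monocytes, for which the labels give no genotype. The macrophages were sorted for high F4/80 surface protein. No label names a drug or other agent, and no label says whether libraries came from separate or pooled mice, so p-values measure only the spread between these libraries, which may be technical. In bulk RNA of a sorted population, fewer cells of a type and less RNA per cell cannot be told apart.

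Depth ranged from 26390927 to 48618187 counts per library, and the 10 genes together took 0.140% to 0.340% of them. Levels within a gene are given as normalized counts (deposited counts divided by a size factor), and levels between genes as TPM, which is per transcript length. All 8 macrophage marker genes had counts, summing to 1002680 to 1614530 normalized counts in the macrophage libraries against 52644 to 218429 in the monocytes. The 8 monocyte markers summed to 67645 to 329090 in the monocytes and 3096 to 9934 in the macrophages. A pair of libraries stood apart from their groups by GC content. In Ly6Clo replicate 2 and eYFP+ replicate 1, the fifth of genes with the highest GC content had a median log2 ratio of -1.25 and -0.62 to the other libraries of the group. Values without these libraries are given where they change an order or a call. The contrasts of each macrophage group with each monocyte group are an exception, as they were not refitted.

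Promoter sequence of 3 of the genes is shown because Anxa1 and Fpr1 had the largest differences among the 10 genes and because Fpr2 is the neighbour of Fpr1. RefSeq windows (build GRCm38.p6, 250 bases before to 50 after the transcript start) were found for 8 of the 10 genes. The windows are Anxa1 at chr19:20390622-20390921 on the minus strand, Fpr1 at chr17:17883890-17884189 on the minus strand and Fpr2 at chr17:17887574-17887873 on the plus strand. Fpr1 and Fpr2 point away from each other, with 3885 bases between their start sites. Capitals mark matches on either strand. The TATA box was searched as TATAAA. The half-site of the glucocorticoid receptor was searched as TGTTCT, which reads AGAACA on the opposite strand.
Anxa1 promoter: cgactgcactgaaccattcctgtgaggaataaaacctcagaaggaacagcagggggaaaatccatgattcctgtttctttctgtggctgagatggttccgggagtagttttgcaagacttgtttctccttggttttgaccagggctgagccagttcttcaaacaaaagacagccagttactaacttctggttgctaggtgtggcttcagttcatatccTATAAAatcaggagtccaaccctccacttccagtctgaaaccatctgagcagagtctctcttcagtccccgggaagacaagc
Fpr1 promoter: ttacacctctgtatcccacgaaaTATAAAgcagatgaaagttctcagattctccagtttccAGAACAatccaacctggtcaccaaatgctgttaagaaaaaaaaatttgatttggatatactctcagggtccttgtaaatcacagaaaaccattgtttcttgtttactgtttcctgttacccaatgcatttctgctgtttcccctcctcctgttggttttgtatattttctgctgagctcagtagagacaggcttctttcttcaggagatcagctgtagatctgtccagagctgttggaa
Fpr2 promoter: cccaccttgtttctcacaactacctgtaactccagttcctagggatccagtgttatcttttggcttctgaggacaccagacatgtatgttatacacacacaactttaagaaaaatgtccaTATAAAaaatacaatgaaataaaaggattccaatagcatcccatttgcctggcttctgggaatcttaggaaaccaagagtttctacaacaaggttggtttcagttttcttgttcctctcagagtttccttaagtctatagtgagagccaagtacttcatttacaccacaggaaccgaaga
Anxa1 carried TATAAA from base -32, counted from the start site, and Anxa2 carried it from base -17. In Fpr1 and Fpr2 the same letters lay at -227 and -130. Of 32851 windows of the same length, 13.6% held TATAAA and 19.0% held TGTTCT, on either strand. TGTTCT was matched in Fpr1 and in 1 of the windows of Anxa4 but in no window of the other genes, and the PU.1 site, searched as AGGAAGT and held by 9.4% of all windows, was matched only in Anxa4 among the 8 genes. The AP-1 site, searched as TGAGTCA and held by 5.2% of all windows, was matched only in Anxa2. A match of letters is a description and says nothing of binding in these cells.

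The make-up of annexin mRNA differed between macrophages and monocytes, as the plot of annexin shares by library shows. Summed over the 8 annexins, mRNA reached 3276 ± 94.6 TPM (SD, n = 3) in Ly6Chi monocytes, 1744 ± 427 in Ly6Clo monocytes, 1198 ± 245 in eYFP+ and 1126 ± 94.4 in eYFP- macrophages. The order of the macrophage groups rests on eYFP+ replicate 1 (1481 TPM), as replicates 2 and 3 had 1049 and 1064. Without Ly6Clo replicate 2 (2235 TPM), the Ly6Clo libraries had 1534 and 1464. Anxa5, which binds exposed phosphatidylserine, made up 54.7% ± 5.47 of that sum in eYFP+ and 48.2% ± 3.24 in eYFP- macrophages. In Ly6Chi monocytes Anxa2, which forms a complex with S100A10 at membranes, led with 46.1% ± 0.863, followed by Anxa5 with 22.7% ± 0.914. In Ly6Clo monocytes Anxa2 held 31.6% ± 7.68, Anxa5 29.7% ± 3.78 and Anxa1 24.5% ± 7.73, but Ly6Clo replicate 2, which stood apart by GC content, set the spread. In Ly6Clo replicates 1 and 3 the order was the same, with Anxa2 at 34.5% and 37.4%, Anxa5 at 26.6% and 28.6% and Anxa1 at 22.4% and 18.1%. In replicate 2 Anxa5 held 33.9%, Anxa1 33.1% and Anxa2 22.9%. Anxa1 held 15.2% ± 0.225 in Ly6Chi monocytes, 3.93% ± 1.31 in eYFP- macrophages and 0.304% ± 0.131 in eYFP+ macrophages. Anxa11 was the least abundant of the 8 in every group but eYFP+ macrophages, where Anxa1 was lower in mean TPM (3.53 against 6.86). That order held in eYFP+ replicates 2 (4.77 against 7.07 TPM) and 3 (2.39 against 10.6), but not in replicate 1, the library that stood apart (3.44 against 2.92). These shares carry no test.

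**Figure D1:**
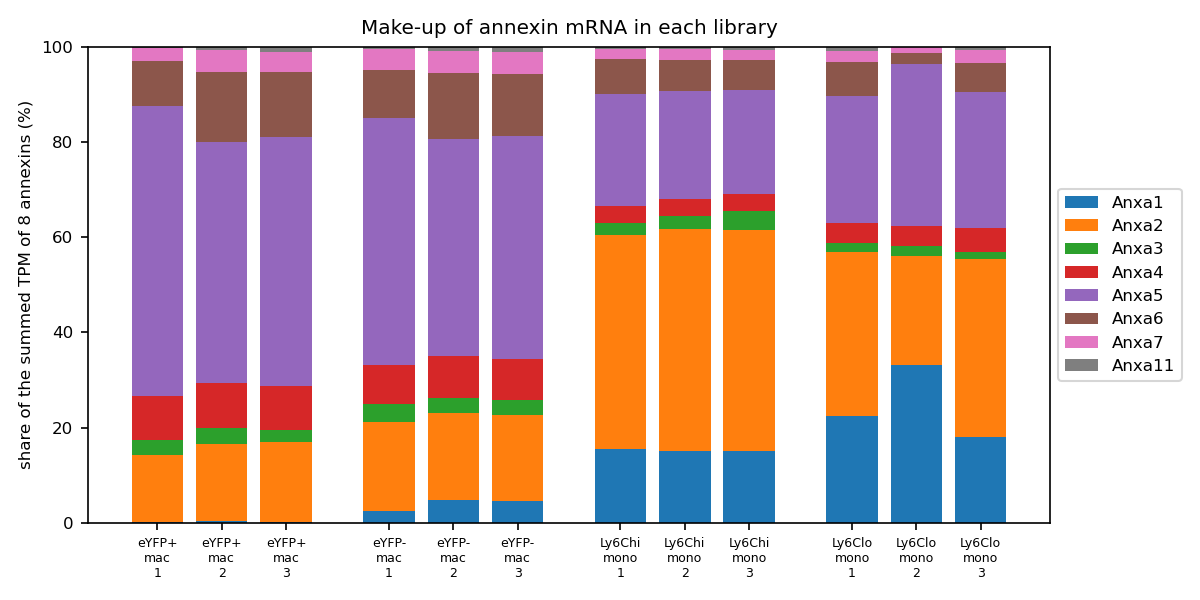
Share of each annexin in the summed TPM of the 8 annexins, in percent, for each of the 12 libraries (bars stack to 100%). Anxa5 takes the largest share in all 6 macrophage libraries, while Anxa2 leads in the Ly6Chi monocytes with a mean of 46.1%.

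The comparison of eYFP+ with eYFP- macrophages asked which of these genes differ between macrophages of the 2 origins. Anxa1 was the only one of the 10 that was called. It had 125, 152 and 73 normalized counts in eYFP+ replicates 1, 2 and 3, against 1051, 1476 and 1588 in the eYFP- replicates. Every eYFP+ library lay below every eYFP- library, and both groups lay far below the Ly6Chi monocytes, at 17642, 17508 and 16665, and the Ly6Clo monocytes, at 11191, 27042 and 9228. The log2 fold change was -3.56 ± 0.45 (SE), or 11.8-fold lower in eYFP+ macrophages, with a DESeq2 adjusted p of 5.31e-12. edgeR's quasi-likelihood test gave an adjusted p of 0.0059. Without eYFP+ replicate 1 and Ly6Clo replicate 2 the log2 fold change was -3.63.

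Among all 21567 genes tested in that contrast 2.04% were called, 1.88% lower and 0.153% higher in eYFP+ macrophages, against 1 of the 10 genes (lower). The split over all genes, 33 higher and 406 lower, was 182 and 347 without eYFP- replicate 2, and a replicate block in DESeq2 gave 471 and 684. Libraries of the 2 groups did not overlap for 15.2% of tested genes and for 1 of the 10. For the other 9 genes the DESeq2 adjusted p was 1, the ranges overlapped, and the log2 fold changes lay between -0.21 (Anxa11) and 0.33 (Anxa5). Their 95% intervals reached at the widest from -1.37 to 0.95 for Anxa11, whereas that of Anxa2 ran from -0.61 to 0.35 and that of Anxa7 from -0.62 to 0.28. Differences within those intervals were not detectable here, and the genes were not shown to be equal. Fpr1, the high-affinity receptor for formylated bacterial peptides in this family, was among these 9, with 26127, 12752 and 14263 normalized counts in eYFP+ and 18790, 11717 and 15691 in eYFP- macrophages. Both groups thus held abundant Fpr1 while they differed in Anxa1.

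Markers of other cells moved in the same direction as Anxa1 between the macrophage groups. The 11 neutrophil markers summed to 4083 to 5646 normalized counts in eYFP+ and 10445 to 46889 in eYFP- macrophages, all 11 having counts in both groups. Mpo, the myeloperoxidase gene, made up most of the eYFP- sum (means of 810 in eYFP+ and 18209 in eYFP-), whereas the means of Csf3r (2626 and 2363), Retnlg (52.6 and 27.4), Cxcr2 (32.3 and 12.7) and Mmp8 (39.7 and 35.1) were higher in eYFP+ macrophages, with overlapping libraries. In Ly6Chi monocytes they summed to 221795 to 322472. The 8 monocyte markers summed to 3096 to 5377 in eYFP+ and 5681 to 9934 in eYFP- macrophages, without overlap. Likewise higher in eYFP- macrophages were the summed levels of 9 erythroid markers (269159 to 519452 against 120884 to 218762) and of 7 stem and progenitor markers (3246 to 6432 against 425 to 781). DESeq2 called 2 of the 11 neutrophil and 4 of the 6 tested monocyte markers lower in eYFP+ macrophages. It also called 2 of the 9 erythroid and 3 of the 7 progenitor markers lower, against 1.88% of all genes tested. In these lists edgeR called 0, 2, 0 and 1, against 0.334% of all genes. Sums of 9 stromal and endothelial markers (6421 to 9264 in eYFP+, 10575 to 12253 in eYFP-) and of 6 megakaryocyte markers (1362 to 2604 against 2865 to 3926) were lower in eYFP+ macrophages too. DESeq2 called 0 of 8 and 1 of 5 tested lower, and edgeR called 0 in either list. The sums of 3 further lists were not lower, but each was made up mostly of 1 gene whose mean was higher in eYFP+ macrophages, while the median log2 fold change of the list was negative. The 9 T and NK cell markers summed to 10587 to 13132 in eYFP+ and 5880 to 10331 in eYFP- macrophages, of which Cd4 took a mean of 11758 and 6503. Their median log2 fold change was -1.92, with 1 called lower (Nkg7, a mean of 93.9 against 964) and 0 higher, and Ncr1 (64.1 against 242), Klrb1c (62.6 against 261) and Gzma (61.2 against 331) were not called. The 8 eosinophil, basophil and mast cell markers summed to 46735 to 83349 against 40645 to 63469, of which Ccr3 took a mean of 59602 and 38747. Their median was -3.95, with 1 of 7 tested called lower (the basophil protease Mcpt8, a mean of 1.69 against 2341) and 0 higher. The eosinophil granule genes Prg2 (70.8 against 5852) and Epx (15.6 against 1015) were not called and Cpa3 (129 against 2176) was given no p-value, but no library of the groups overlapped for any of these 3. The 8 B and plasma cell markers overlapped in sum (10728 to 18174 against 9654 to 14634, mostly Cd79b with a mean of 13318 and 11823), with a median of -1.44 and 0 called. Of all these genes, Gp1bb of the megakaryocyte list alone was at 0 in every library of a macrophage group. The part of these cells in the Anxa1 difference was not tested. Macrophage markers themselves summed to 1208780 to 1614530 normalized counts in eYFP+ and 1002680 to 1037210 in eYFP- macrophages, with 0 of the 8 called. The levels can be set against the Ly6Chi mean of each gene. Anxa1 in eYFP- macrophages stood at 7.94% ± 1.64 (SD, n = 3) of its Ly6Chi mean, whereas Ly6c2, the Ly6C antigen gene, stood at 0.126% ± 0.157, Ccr2 at 0.857% ± 0.384 and Plac8 at 3.59% ± 1.24. Cx3cr1, Nr4a1 and Spn, which Ly6Clo monocytes carry, stood higher than Anxa1 on this scale, at 14.4% ± 4.14, 21.1% ± 4.45 and 21.8% ± 4.05. Of these 3, Spn was low in eYFP+ macrophages (1.46% ± 2.01), while Cx3cr1 and Nr4a1 stood at 13.0% ± 5.18 and 21.8% ± 5.86 there. Anxa1 in eYFP+ macrophages stood at 0.673% ± 0.233. Among the neutrophil markers, Mpo stood at 40.5%, 109.6% and 147% in the eYFP- libraries, far above Anxa1, and at 1.23% to 9.84% in the eYFP+ libraries. Elane stood at 1.92%, 13.1% and 17.0% in eYFP- macrophages and Csf3r at 12.7% to 18.1%, whereas S100a8 reached from 0.374% to 8.33% and Ngp from 0.235% to 9.72%. Among the eYFP- replicates, Anxa1 was lowest in replicate 1, where neutrophil and monocyte marker sums were lowest too (10445 and 5681), and highest in replicate 3, whereas both sums were highest in replicate 2.

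**Figure D2:**
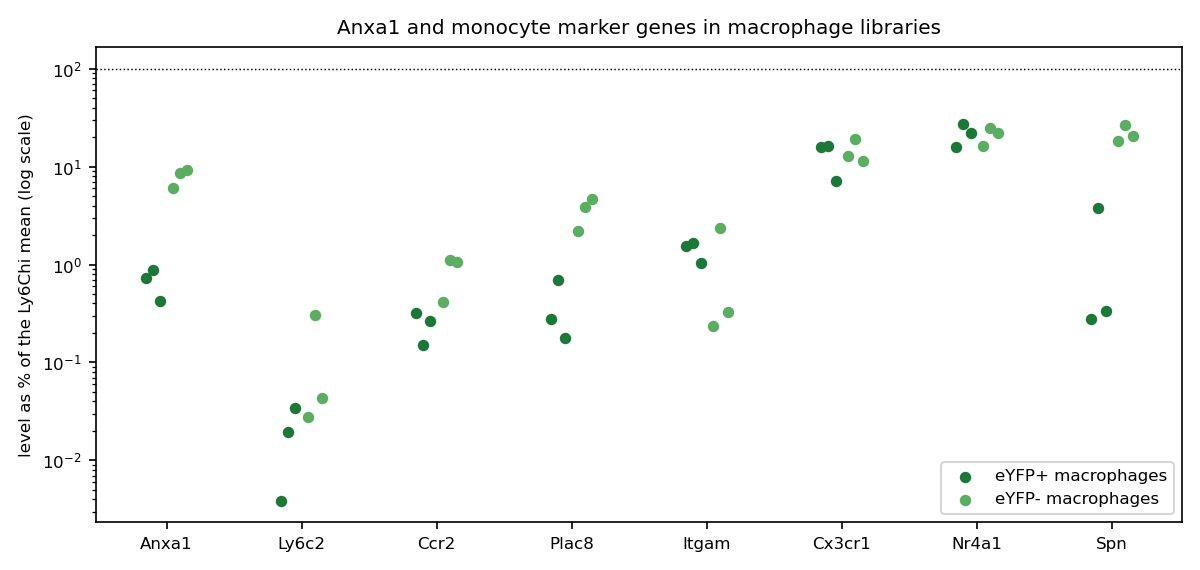
Level of Anxa1 and of 7 monocyte marker genes in each macrophage library, as a percentage of the mean of the same gene in Ly6Chi monocytes (log scale; points are libraries, the dotted line is 100%). Anxa1 of eYFP- macrophages lies at 6.08% to 9.20%, above Ly6c2, Ccr2 and Plac8 and below Spn in the same libraries.

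Ly6Chi and Ly6Clo monocytes, the classical and the patrolling type, were compared next, and here several intracellular annexins differed. Anxa2, Anxa3, Anxa6 and Anxa7 were higher in Ly6Chi monocytes and Fpr1 was lower, 5 of the 10 genes against 8.62% of all 21567 genes tested. In each direction this was 4 of 10 against 3.66% (higher) and 1 of 10 against 4.97% (lower). The libraries did not overlap for 7 of the 10 genes, against 28.1% of all tested genes. Without eYFP+ replicate 1 and Ly6Clo replicate 2, 7 of the 10 were called, against 13.6% of all genes tested in that fit, with Anxa4 and Anxa5 added as higher in Ly6Chi monocytes.

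Anxa2 had 44520, 47056 and 44281 normalized counts in Ly6Chi and 14925, 16167 and 16494 in Ly6Clo monocytes. The groups were widely apart and each was tight, and the log2 fold change was 1.51 ± 0.24 (SE; DESeq2 adjusted p = 5.21e-08). Anxa6, a large annexin tied to cholesterol and endosome traffic, had 12325, 11272 and 10351 normalized counts in Ly6Chi and 5304, 2886 and 4704 in Ly6Clo monocytes. No library overlapped, Ly6Clo replicate 2 was the lowest, and the log2 fold change was 1.40 ± 0.27 (adjusted p = 1.23e-05). Anxa7, first known as synexin, had 4258, 4372 and 4176 normalized counts in Ly6Chi against 2097, 1648 and 2338 in Ly6Clo monocytes. It too was separated in every library, by 1.07 ± 0.23 on the log2 scale (adjusted p = 0.000132).

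Anxa3, an annexin of phagocyte granules, had 2735, 2986 and 4241 normalized counts in Ly6Chi and 942, 1681 and 730 in Ly6Clo monocytes. Ly6Chi replicate 3 was the highest and Ly6Clo replicate 2 the highest of its group, without overlap, and the log2 fold change was 1.57 ± 0.41 (adjusted p = 0.00355). Over 27 alternatives the log2 fold change lay between 1.339 and 1.99, and the call was lost in 2, without Ly6Chi replicate 3 (1.35, DESeq2 adjusted p = 0.0597) and in edgeR with the replicate block (0.0577). Fpr1 went the other way, with 214, 548 and 692 normalized counts in Ly6Chi and 1080, 1566 and 1400 in Ly6Clo monocytes. The ranges did not overlap, the lowest value being Ly6Chi replicate 1, and the log2 fold change was -1.48 ± 0.46 (DESeq2 adjusted p = 0.0198). The direction held in all 27 alternatives (log2 fold changes of -1.83 to -1.12), but 8 lost the call. These were edgeR (adjusted p = 0.082), edgeR with the replicate block (0.157), DESeq2 on the 6 monocyte libraries (0.0653), limma without a filter at pseudocounts of 1 (0.0634) and 0.1 (0.0559), and DESeq2 without Ly6Chi replicate 1 (0.0988), Ly6Chi replicate 2 (0.0553) or Ly6Clo replicate 3 (0.0568).

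Some markers of other cells moved with Fpr1 between the monocytes, and others moved against it. Of the 8 macrophage markers, all with counts in both groups, 5 were called lower in Ly6Chi monocytes and 0 higher (median log2 fold change -1.79, against 0.02 for all genes tested, of which 4.97% were lower). Spic, a transcription factor of iron-recycling macrophages, averaged 196 and 1785 normalized counts in Ly6Chi and Ly6Clo monocytes, Vcam1 1127 and 4423, Mrc1 829 and 2956, and Cd5l 158 and 531. The fifth was Adgre1, which encodes F4/80, at 16912 and 34000. Siglec1 had the higher mean in Ly6Chi monocytes (1242 against 444), without overlap and not called. The sum of the 8 overlapped (120312 to 135761 in Ly6Chi, 52644 to 218429 in Ly6Clo), as it was mostly Csf1r (108801 and 118501), which monocytes carry too. The 11 neutrophil markers summed to 221795 to 322472 in Ly6Chi and 111490 to 221646 in Ly6Clo monocytes, with Elane and Mpo called higher in Ly6Chi cells and Ly6g (62.6 against 538) called lower. Ccr3 (47.7 against 456), the platelet factor gene Pf4 (17.2 against 804) and the endothelial gene Pecam1 (471 against 5031) were also called lower in Ly6Chi monocytes. Of the B cell lineage genes, Cd79b (747 against 2123) was called lower in Ly6Chi monocytes, while Ms4a1, Igll1 and Jchain were at 0 in every Ly6Clo library. The median log2 fold change of the B and plasma cell list was 1.90. The part of these cells in the Fpr1 difference was not tested.

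Of the 5 genes not called between the monocytes, Anxa1 (log2 fold change 0.13 ± 0.44) and Fpr2 (0.12 ± 0.36) had 95% intervals from -0.74 to 0.99 and from -0.58 to 0.82. Without Ly6Clo replicate 2 the Ly6Clo mean of Anxa1 was 10210 normalized counts, against 17272 in Ly6Chi monocytes. Over 27 alternatives its log2 fold change lay between -0.15 and 0.76 and was called in 0. Anxa4, an annexin studied mainly in epithelia, had 4924, 4944 and 4885 normalized counts in Ly6Chi against 2484, 4223 and 3008 in Ly6Clo monocytes, with no overlap and a log2 fold change of 0.60 ± 0.31 (adjusted p = 0.249). Anxa11, known to tether RNA granules to lysosomes, had 654, 732 and 882 normalized counts in Ly6Chi against 567, 99 and 484 in Ly6Clo monocytes, also without overlap (0.98 ± 0.59, adjusted p = 0.352). Anxa5 had 27798, 27592 and 24814 against 13774, 28665 and 15078, where Ly6Clo replicate 2 lay above every Ly6Chi library (0.48 ± 0.40, adjusted p = 0.538). Relative to the mean of the other 2 Ly6Clo libraries, that library was higher by a log2 ratio of 1.41 for Anxa1, 0.99 for Anxa5 and 0.62 for Anxa4, and lower at -0.79 for Anxa6 and -2.41 for Anxa11. Transcript GC content was 43.6% for Anxa1, 46.3% for Anxa4, 50.9% for Anxa5, 54.0% for Anxa6 and 55.1% for Anxa11. For Fpr2, Fpr1 and Anxa3, at a GC content of 44.1%, 45.9% and 47.3%, the log2 ratio of that library was 0.28, 0.34 and 1.01. For Anxa7 and Anxa2, at 48.6% and 51.7%, it was -0.43 and 0.04, so the ratios did not follow the order of GC content throughout. Without Ly6Clo replicate 2 alone, Anxa4 was called higher in Ly6Chi monocytes (log2 fold change 0.84, DESeq2 adjusted p = 0.0376). The part of GC content in these values was not tested.

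**Figure D3:**
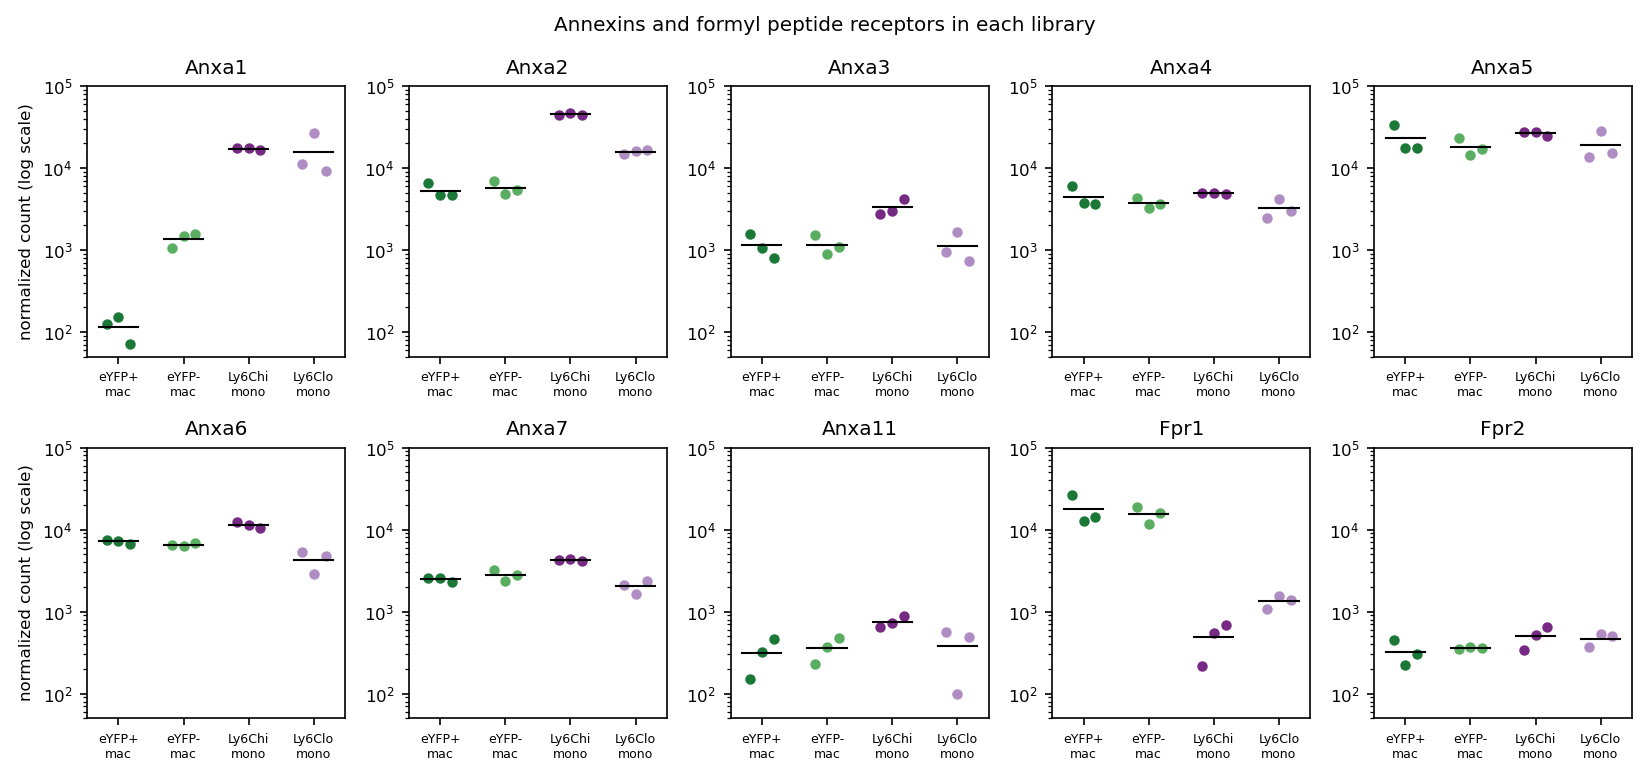
Normalized counts (log scale) of the 10 genes in each of the 12 libraries; points are libraries in the order of replicates 1, 2 and 3 and black lines are group means. Anxa1 spans from 73 to 27042 normalized counts, Fpr1 is high in macrophages and low in monocytes, and most other annexins peak in Ly6Chi monocytes.

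Macrophages were then compared with monocytes, taking the mean of both groups on each side. Anxa1, Anxa2 and Anxa3 were lower and Fpr1 was higher in macrophages, 4 of the 10 genes against 35.4% of the 22385 genes tested. By direction this was 1 of 10 against 20.3% of all genes (higher) and 3 of 10 against 15% (lower). Libraries of the 2 cell types did not overlap for 3 of the 10 genes (Anxa1, Anxa2 and Fpr1), against 17.7% of all tested genes. Whether these shares differ from those of all genes was not tested. The log2 fold change was -5.37 ± 0.31 (SE) for Anxa1 and -2.28 ± 0.17 for Anxa2, with DESeq2 adjusted p of 3.03e-63 and 2.37e-38. For Fpr1 it was 4.35 ± 0.32, or 20.4-fold higher in macrophages (adjusted p = 1.28e-39). Markers of other cells differed here too. DESeq2 called 8 of the 11 neutrophil markers lower in macrophages and 0 higher (median log2 fold change -5.09). All 9 erythroid markers were called higher (median 4.39), as were 6 of the 9 T and NK cell markers (median 3.81). The part of these cells in the differences was not tested.

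Anxa3 was lower in macrophages by a smaller amount, and the ranges of the cell types overlapped (730 to 4241 normalized counts in monocytes, 795 to 1558 in macrophages). Its log2 fold change was -0.74 ± 0.29, with an adjusted p of 0.0336 in DESeq2 and 0.035 in edgeR. The call was lost in 11 of 26 alternatives, in which the log2 fold change kept its sign. These were the replicate block in DESeq2 (adjusted p = 0.0616) and edgeR (0.0543), DESeq2 without independent filtering (0.0641), limma without a filter at pseudocounts of 1 (0.083) and 0.1 (0.0843), and the fits without any of 6 single libraries, among them both Ly6Chi replicate 3 (0.112) and eYFP- replicate 2 (0.154). Anxa4, Anxa5, Anxa6, Anxa7, Anxa11 and Fpr2 were not called, and their log2 fold changes lay between -0.69 (Anxa11) and 0.04 (Anxa4). Without eYFP+ replicate 1 and Ly6Clo replicate 2, Anxa11 (-0.79, adjusted p = 0.00222) and Fpr2 (-0.64, adjusted p = 0.0122) were called lower in macrophages, 6 of the 10 in all, against 41.2% of all genes tested in that fit.

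**Figure D4:**
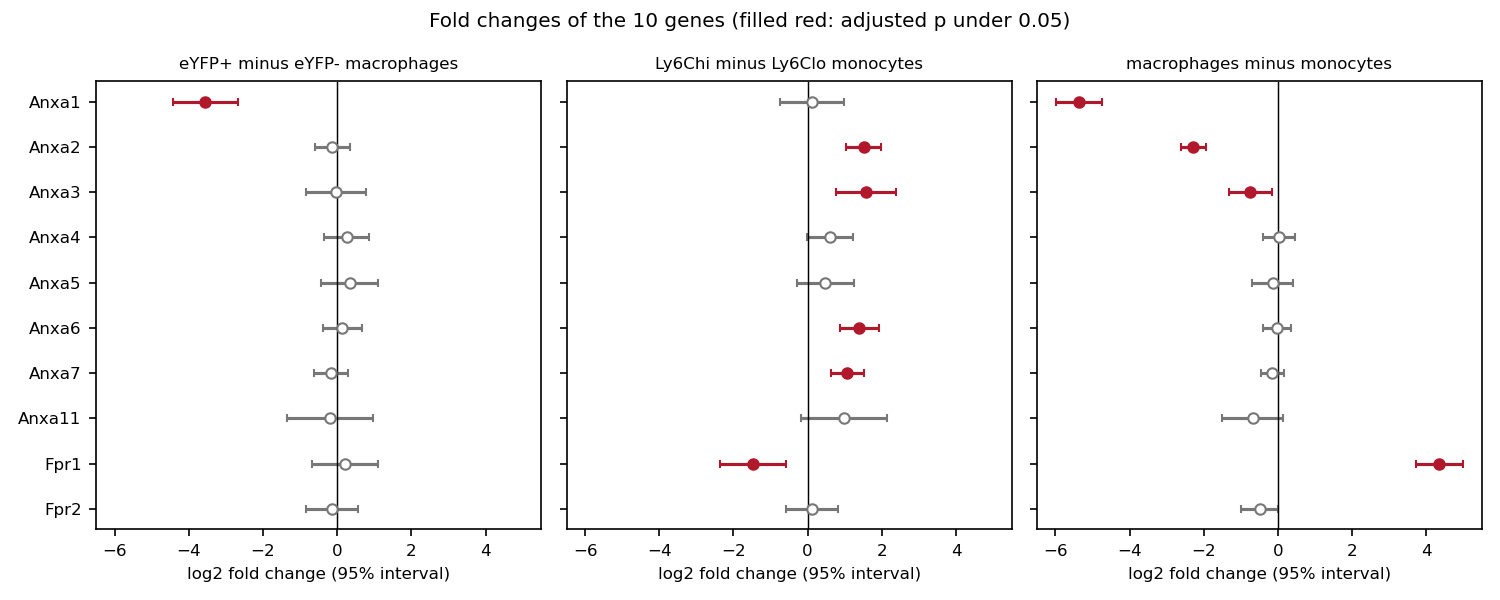
Log2 fold changes of the 10 genes in the 3 contrasts, with 95% intervals (filled red: DESeq2 adjusted p under 0.05; open grey: not called). Anxa1 at -3.56 is the only filled point of the first panel, and Anxa1 at -5.37 and Fpr1 at 4.35 lie farthest from 0 in the last.

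Because the monocyte groups differed in several of the genes, each macrophage group was also set against each monocyte group. These contrasts share libraries, are given side by side and were not refitted without the libraries that stood apart. Of the 10 genes, 5 were called between eYFP+ macrophages and Ly6Chi monocytes (24.5% of all genes tested there), 4 between eYFP+ macrophages and Ly6Clo monocytes (28%), 6 between eYFP- macrophages and Ly6Chi monocytes (27.4%) and 3 between eYFP- macrophages and Ly6Clo monocytes (26.3%). Anxa1, Anxa2 and Fpr1 were called in all 4, in the directions given above. Against Ly6Chi monocytes the log2 fold change of Anxa1 was -7.22 ± 0.45 in eYFP+ and -3.65 ± 0.44 in eYFP- macrophages. Anxa3 was lower than in Ly6Chi monocytes in both macrophage groups (log2 fold change -1.54 ± 0.41 in eYFP+ and -1.52 ± 0.41 in eYFP-, adjusted p of 0.00139 and 0.00165), but against Ly6Clo monocytes its log2 fold changes were 0.03 and 0.06 and were not called. Anxa7 showed the same calls against Ly6Chi monocytes (-0.78 ± 0.23 and -0.61 ± 0.23, adjusted p of 0.00444 and 0.0325). Anxa6 was lower in eYFP- macrophages than in Ly6Chi monocytes (-0.79 ± 0.27, adjusted p = 0.0151) and higher in eYFP+ macrophages than in Ly6Clo monocytes by DESeq2 (0.74 ± 0.27, adjusted p = 0.0256), a call lost in edgeR (0.0507). Both macrophage groups lay between the monocyte groups in mean level of Anxa6.

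Ranked by mean normalized count over the 4 groups, Anxa1 and Anxa2 both ran from Ly6Chi over Ly6Clo monocytes and eYFP- macrophages to eYFP+ macrophages. For Anxa1 the neighbours Ly6Chi and Ly6Clo were not called apart (adjusted p = 0.918), whereas the 2 following steps were. For Anxa2 the macrophage groups were the neighbours not called apart. Fpr1 ran in the reverse order, from eYFP+ macrophages (17714 ± 7325 normalized counts, SD, n = 3) over eYFP- macrophages (15399 ± 3545) and Ly6Clo monocytes (1349 ± 247) to Ly6Chi monocytes (485 ± 245), and only the macrophage groups were not called apart. The order of these 2 groups turned without eYFP+ replicate 1 (26127), as the mean of the other 2 eYFP+ libraries was 13508. For Anxa4, Anxa5, Anxa6, Anxa11 and Fpr2 no neighbouring groups were called apart, and for Anxa3 and Anxa7 only Ly6Chi monocytes and the eYFP- macrophages next to them were. Ly6Chi monocytes had the highest mean of the 4 groups for all 8 annexins and for Fpr2.

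The 2 receptors were compared with each other in TPM. Fpr1 reached 671 ± 213 TPM (SD, n = 3) in eYFP+ macrophages (912 in replicate 1, 507 and 593 in the others) and 602 ± 84.1 in eYFP- macrophages, 48.9 ± 6.35 in Ly6Clo and 17.7 ± 8.93 in Ly6Chi monocytes. Fpr2, whose product binds lipids and peptides of resolution as well as serum amyloid A, lay between 10.3 and 27.6 TPM in all 12 libraries. The ratio of Fpr1 to Fpr2 TPM was 49.7, 49.1 and 39.9 in the eYFP+ libraries and 45.6, 26.7 and 37.8 in the eYFP- libraries. It was 2.51, 2.55 and 2.40 in Ly6Clo and 0.532, 0.906 and 0.913 in Ly6Chi monocytes. Fpr1 thus exceeded Fpr2 in every macrophage and Ly6Clo library and was below it in every Ly6Chi library, and their start sites lie 3885 bases apart. Reads shared by near-identical family members were not counted, which leaves the level of Fpr2, a close relative of Fpr3, uncertain.

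**Figure D5:**
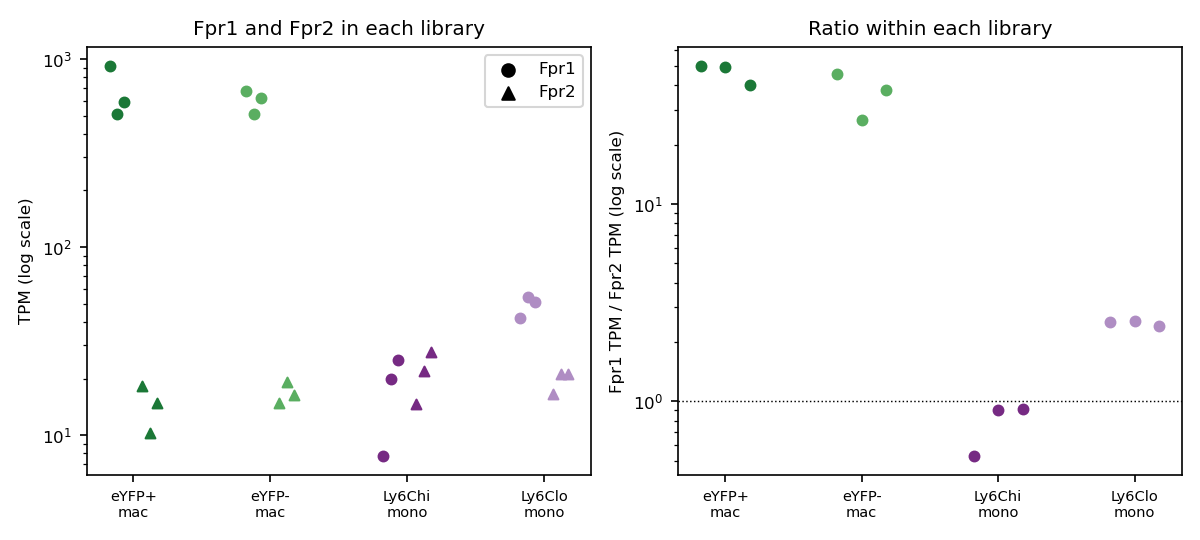
Left, TPM of Fpr1 (circles) and Fpr2 (triangles) in each library, and right, their ratio within each library, both on log scales (the dotted line is a ratio of 1). Fpr2 stays between 10.3 and 27.6 TPM in all 12 libraries, while the ratio lies from 26.7 to 49.7 in macrophages and from 0.532 to 0.913 in Ly6Chi monocytes.

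The remaining genes of both families were near or below detection, except Anxa9. Anxa9, an annexin with reduced calcium binding, had 629, 410 and 901 normalized counts in eYFP+ and 751, 521 and 564 in eYFP- macrophages. In monocytes it had 134, 60 and 52 (Ly6Chi) and 56, 0 and 75 (Ly6Clo), below every macrophage library. The log2 fold change of macrophages over monocytes was 3.39 ± 0.59 (SE; DESeq2 adjusted p = 7.63e-08, edgeR 0.00196), in the direction opposite to Anxa1 and Anxa2. Anxa8, Anxa10 and Anxa13 reached at most 18 normalized counts in any library. Fpr3, Fpr-rs3 and Fpr-rs7 reached at most 4, and Fpr-rs4 and Fpr-rs6 had none in any library.

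Several partners of annexins were lower in eYFP+ macrophages, higher in Ly6Chi monocytes and lower in macrophages as a whole. Of 8 listed partners, 3 were lower and 0 higher in eYFP+ macrophages (median log2 fold change -0.89, against 0.05 for all genes tested, of which 1.88% were lower), although edgeR called 0 of them. S100a10, the light chain of the annexin A2 complex, averaged 166 ± 37.9 normalized counts in eYFP+ macrophages (SD, n = 3), against 644 ± 255 in eYFP- macrophages (DESeq2 adjusted p = 0.000212, edgeR 0.051). S100a11, which binds annexin A1, had 56.7 ± 14.8 and 298 ± 113 (DESeq2 0.000645, edgeR 0.0809), and S100a6 had 40.7 ± 4.53 and 127 ± 60.9 (DESeq2 0.00265, edgeR 0.0698). Monocyte and neutrophil marker sums, given above, were lower in eYFP+ macrophages too, and the part of such cells in these partners was not tested. Between monocytes 4 of the 8 were higher in Ly6Chi cells and 0 lower (median 1.55 against 0.02, with 3.66% of all genes higher), led by S100a6 (log2 fold change 2.03 ± 0.36), S100a10 (2.14 ± 0.39) and Ahnak (2.29 ± 0.52), a giant scaffold protein that binds the A2 complex. In macrophages 5 of the 8 were lower than in monocytes and 1 higher (median -4.62 against 0.08, with 15% of all genes lower), with S100a6 at -7.51 ± 0.27, S100a4 at -8.40 ± 0.56 and Ahnak at -5.49 ± 0.37. The higher one was Dysf, the membrane repair protein dysferlin (7.03 ± 1.01), named here after its value was seen. Between the macrophage groups the log2 fold change was -0.13 ± 0.24 for Anxa2 itself (not called) and -1.95 ± 0.40 for S100a10.

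Of 6 listed host ligands of formyl peptide receptors, 4 were tested, and DESeq2 called 2 lower in eYFP+ macrophages, against 1.88% of all genes. Camp, the precursor of the cathelicidin peptide, and Ctsg, the neutrophil protease cathepsin G, were lower in eYFP+ macrophages in DESeq2 (adjusted p of 0.0135 and 0.0237), but not in edgeR (0.307 and 0.334). For Camp the eYFP- libraries spanned 136 to 3455 normalized counts, 1 of them far above the others, and overlapped with the eYFP+ libraries at 94.4 to 168. Both are neutrophil-lineage genes, and the neutrophil marker sums given above moved in the same direction, although the means of Csf3r, Retnlg, Cxcr2 and Mmp8 did not. The part of neutrophil-lineage cells in these values was not tested. Hebp1, whose N-terminal peptide is a ligand, was higher in macrophages than in monocytes (5890 against 98.5 mean normalized counts, log2 fold change 5.93 ± 0.41), as Fpr1 was. Camp was lower in macrophages than in monocytes (-6.04 ± 0.62). In Ly6Chi monocytes Ctsg was higher than in Ly6Clo monocytes (3.93 ± 1.07, DESeq2 adjusted p = 0.00558, edgeR 0.105), and Saa3, an acute-phase serum amyloid A, had 97.2 to 125 normalized counts in Ly6Chi monocytes and at most 1.49 in any library of the other groups.

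Of 15 genes of formyl receptor signalling (G-protein subunits, phospholipase, kinase and oxidase genes), 0 were called between the macrophage groups by DESeq2 or by edgeR. At an unadjusted p under 0.05 it was 1, Cybb, the catalytic oxidase subunit (log2 fold change 0.55 ± 0.22, DESeq2 adjusted p = 0.278). Between monocytes 1 was called, Gng2 (2.06 ± 0.38, adjusted p = 3.46e-06), a G-protein gamma subunit higher in Ly6Chi cells, against 3.66% of all genes higher and 8.62% called in either direction. In macrophages 11 of the 15 were lower than in monocytes and 1 higher (Arrb2, a beta-arrestin, named after its value was seen, at 1.001 ± 0.337; median -0.98 against 0.08, with 15% of all genes lower and 20.3% higher), including the oxidase genes Cybb (-2.60 ± 0.16) and Ncf4 (-3.31 ± 0.24).

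Among 8 genes of the glucocorticoid response, 1 was lower in eYFP+ than in eYFP- macrophages by DESeq2 (1.88% of all genes) and 0 by edgeR. It was Hsd11b1 (5.71 ± 5.94 against 62.7 ± 34.96 normalized counts, SD, n = 3), which was below the level set for naming and is named after its value was seen. Nr3c1, the receptor gene, had a log2 fold change of 0.56 ± 0.32 (adjusted p = 0.704). Hsd11b1, which activates glucocorticoids, was lower in macrophages than in monocytes (-7.07 ± 0.41), with Tsc22d3 (-1.41 ± 0.22) and Zbtb16 (-4.61 ± 1.21), among 6 of 8 lower and 0 higher. The median log2 fold change of these 8 was -1.04, against 0.08 for all genes tested, of which 15% were called lower. In Ly6Chi monocytes Dusp1 (-2.20 ± 0.38) and Hsd11b1 (-1.52 ± 0.53, DESeq2 adjusted p = 0.0471, edgeR 0.144) were lower than in Ly6Clo monocytes, 2 of 8 against 4.97% of all genes (median -0.57 against 0.02). Of 7 genes of the plasminogen system, whose activation the annexin A2 complex promotes on cell surfaces, 6 were tested. Between the macrophage groups 0 of these were called by DESeq2 or edgeR and 0 had an unadjusted p under 0.05, and the lowest adjusted p was that of Plau (0.913). Plaur, the urokinase receptor, was lower in macrophages than in monocytes (-4.47 ± 0.44), as was Eno1, a glycolytic enzyme that also binds plasminogen (-1.32 ± 0.22), whereas Plgrkt, a plasminogen receptor named here after its value was seen, was higher (1.10 ± 0.21). In all 2 of the 6 were higher and 2 lower there (median -0.94 against 0.08), with 20.3% of all genes higher and 15% lower. Between monocytes Plgrkt alone was called, lower in Ly6Chi cells by DESeq2 (-0.91 ± 0.30, adjusted p = 0.031) but not by edgeR (0.0966).

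Of 9 genes of lipid mediators of resolution, 8 were tested, and 2 were lower in eYFP+ macrophages, against 1.88% of all genes (median -0.89 against 0.05). Ltb4r1, the leukotriene B4 receptor, had 35.7 ± 21.4 normalized counts in eYFP+ and 175 ± 66.8 in eYFP- macrophages (DESeq2 adjusted p = 7.99e-05, edgeR 0.0488). Alox5ap, which hands arachidonic acid to 5-lipoxygenase, had 325 ± 231 and 1414 ± 266 (DESeq2 0.00209, edgeR 0.0866). Here too the part of monocytes and neutrophils, whose marker sums were lower in eYFP+ macrophages, was not tested. In macrophages 5 of the 8 were lower than in monocytes and 2 higher (median -1.69 against 0.08, with 15% of all genes lower and 20.3% higher), the strongest being Ltb4r1 (-6.41 ± 0.31), the lipid receptor Gpr18 (-5.89 ± 0.34) and Alox5ap (-5.55 ± 0.35). The 2 higher ones, named after their values were seen, were the phospholipase Pla2g4a (2.53 ± 0.23) and the chemerin receptor Cmklr1 (1.60 ± 0.30). Alox5, the 5-lipoxygenase gene, was lower in Ly6Chi than in Ly6Clo monocytes (-1.52 ± 0.30).

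Likeness of pattern was measured as the root-mean-square difference of centred log2 normalized counts over the 12 libraries, as a description. Nearest to Anxa1, which itself varied by 2.98 on that scale, were Alox5ap (0.60), Lat2 (0.64) and Gm6169 (0.67). Nearest to Anxa2 (own variation 1.28) were Zbp1 (0.24), Ifi27l2a (0.29) and Kmt5a (0.30), and nearest to Fpr1 (2.32) were Gpr34 (0.42), Cd1d1 (0.46) and AC110730.1 (0.49). For Anxa3 these were Dpy19l1, Tspo and Oas1a, at 0.29 to 0.34. Anxa4 and Anxa5 were near each other (0.16), with Irgm1 (0.13), E2f1 and Utp14a nearest to Anxa4, and Ifi35 (0.14), Anxa4 and Ebp nearest to Anxa5. Dstn, Gm6776 and Hivep3 were nearest to Anxa6 (0.19 to 0.22), Alas1, Plin3 and Ccdc115 to Anxa7 (0.19 each), and Rtcb, Crot and Mis12 to Fpr2 (0.22 to 0.25). Ehbp1l1, Unc13d and Ampd2 were nearest to Anxa11 (0.20 to 0.24), the gene whose lowest values were those of eYFP+ replicate 1 (151 normalized counts) and Ly6Clo replicate 2 (99). Whether these genes share regulation was not tested.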

How the data were processed

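Sorted myeloid cells of 4 groups with 3 libraries each were sequenced as pairs. Per the study's methods, reads were trimmed, corrected, freed of ribosomal RNA and aligned with segemehl to GRCm39. The authors deposited counts of unambiguously aligned read pairs per Ensembl gene from featureCounts. The authors also deposited TPM, and variance-stabilised counts close to a log2 scale. Strand use is not stated, so Anxa11 and its antisense neighbour cannot be told apart. Multi-mapping copies lose reads, and Anxa2 has pseudogenes. cDNA was amplified without molecular identifiers, so errors come from replicates.

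Groups came from sample titles. DESeq2 1.42.0 (R 4.3.3) fitted deposited counts of all 12 libraries with group as the factor, and Benjamini-Hochberg adjusted p under 0.05 over all genes was a call. Log2 fold changes are unshrunken. Alternatives were edgeR 4.0.16, limma 3.58.1 on log2 TPM with pseudocounts of 1 or 0.1, other size factors and filters, GC offsets, the replicate number as a block, and leaving out libraries. The fit was tested on simulated counts. The 10 genes, the 6 lists of related genes, the 10 marker lists and the naming rule were chosen with earlier results of these data known. Named were all 10 genes, other members of both families, at most 3 genes of each list per contrast by adjusted p with a mean of at least 50 normalized counts, and the 3 genes most like each of the 10 in pattern. The variance-stabilised values served only to compare libraries. GC content came from GENCODE transcripts of another build, and promoters from RefSeq (GRCm38.p6). Some genes that met the naming rule are not reported here.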

Additional observations from a re-analysis of the deposited data

How the results depend on the processing

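Anxa1 alone was called between eYFP+ and eYFP- macrophages under all 27 alternatives, with log2 fold changes from -3.80 to -3.29 and adjusted p from 1.11e-29 to 0.021. Between monocytes 5 of the 10 genes were called (8.62% of all genes), and 3 in edgeR with the replicate number as a block (2.8%), where Anxa3 (0.0577) and Fpr1 (0.157) lost their calls; leaving out libraries gave 4 to 7 (6.45% to 13.6%). Between macrophages and monocytes 4 were called (35.4% of all genes), 3 with the block in DESeq2 (23%) or edgeR (31.3%), 6 with GC offsets (35%), where Anxa11 (0.0356) and Fpr2 (0.0388) were added, and 3 to 6 without single libraries or the pair that stood apart (19.1% to 41.2%). GC offsets moved the median log2 fold change of all tested genes in that contrast from 0.08 to -0.05.

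Values that were never called changed sign. Between macrophages and monocytes Anxa4 was -0.0057 with total-count size factors, -0.059 with GC offsets and -0.068 with GC offsets and the block, and Anxa6 was 0.094, 0.097 and 0.094 in limma with a pseudocount of 1, of 0.1 and of 1 with a filter. Without 1 or both of the libraries left out, Anxa4 ranged there from -0.094 to 0.11, Anxa5 from -0.34 to 0.0072 and Anxa6 from -0.20 to 0.057. Between the macrophage groups Anxa2 ranged from -0.32 to 0.037, Anxa3 from -0.32 to 0.21, Anxa4 from -0.029 to 0.39, Anxa5 from -0.065 to 0.55, Anxa11 from -0.61 to 0.12, Fpr1 from -0.20 to 0.39 and Fpr2 from -0.46 to 0.065. Between monocytes Anxa1 ranged from -0.15 to 0.76 and Fpr2 from -0.11 to 0.33. The cause was not tested.

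Over all genes, 439 calls between the macrophage groups became 64 in edgeR, 24 in edgeR with the block, 1155 with the block in DESeq2, 1136 with GC offsets and the block, 686 in a fit of 6 libraries, 220, 109 and 357 in limma, 865 without Ly6Clo replicate 2, 989 without both libraries that stood apart and 227 without eYFP- replicate 3. Between monocytes 1860 calls became 829 in edgeR, 537 in edgeR with the block, 1191 in a fit of 6 libraries, 969, 874 and 1219 in limma, 1219, 1205 and 1250 without Ly6Chi replicate 1, 2 or 3, 2290 without Ly6Clo replicate 1, 2696 without both libraries that stood apart, and 2239 with the block in DESeq2 (1187 higher and 1052 lower, from 789 and 1071), while GC offsets gave 801 higher and 1381 lower. The labels do not say that a replicate number marks a shared mouse or sort. Deviations from group means correlated between same-numbered macrophage libraries at 0.443, 0.282 and 0.121 over the 2000 most abundant genes and at 0.301, 0.165 and 0.0617 over the 2000 most variable, and between same-numbered monocyte libraries at 0.283, 0.054 and -0.009. Not every library correlated best with its own number (eYFP+ and eYFP- libraries of unlike number reached 0.361), so numbers were not taken as pairs. With 3 libraries a group and the intervals given, small differences of Anxa11, Fpr1 and Fpr2 were not detectable.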
